A study of Mus musculus with 12 samples.

Results

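The genes described here encode receptors for extracellular ATP and adenosine and the surface enzymes that turn the former into the latter. They are the P2X channel genes P2rx2, P2rx4, P2rx5 and P2rx7, the P2Y receptor genes P2ry1 and P2ry2, the ectonucleotidase genes Entpd1 and Nt5e, and the adenosine receptor genes Adora1 and Adora2a. These 10 genes were taken by name from a table of 57073 gene models, and each name had 1 row. RNA sequencing of poly-A transcripts was made from retinas of C57BL/6 mice at postnatal day 17, with 6 libraries from mice in normoxic air and 6 from mice given 75% oxygen, the oxygen-induced retinopathy (OIR) model. In this model high oxygen stops and prunes the growth of retinal vessels, and the return to room air leaves a hypoxic retina that grows abnormal vessels. The labels give no genetic change in either group, and the sources used here do not give the length of the oxygen exposure, the sex of the mice or the number of retinas in a library. The 10 genes were proposed for their place in the pathway with their OIR and normoxic values already known, so these values describe them and no p-value of that comparison is given for them.

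ATP leaves cells through channels, vesicles or injury and opens P2X receptors, which are trimeric cation channels, or binds P2Y receptors, which signal through G proteins. The enzyme CD39, the product of Entpd1, cuts ATP and ADP to AMP, and CD73, the product of Nt5e, cuts AMP to adenosine. Adenosine then acts on the A1 receptor (Adora1), which lowers cyclic AMP and damps transmitter release, and on the receptor encoded by Adora2a, which raises cyclic AMP. In the retina, P2X2 is known from inner neurons, P2X7 and CD39 from microglia, CD39 also from vessels, and CD73 from rod photoreceptors, for whose precursors it serves as a sorting marker.

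Total counts per library ranged from 17361979 to 21594618. The retina label was checked on a rod gene: Gnat1 (rod transducin) stood at 9231 ± 494 CPM (gene counts scaled to a common library size with TMM factors) in normoxic and 10176 ± 627 CPM in OIR libraries, and 8 lens genes summed to 1.69 to 45.1 CPM. A bulk library cannot tell fewer cells of a type from less RNA per cell, and this holds for every level below. The labels do not say that each library came from its own animals, so a p-value here refers to spread among libraries, which may be technical.

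In OIR retinas the P2X2 channel gene stood at 1.51 ± 0.423 CPM against 6.34 ± 1.89 in normoxic ones (mean ± SD, n = 6 in each group), a 4.18-fold lower level. P2rx5 was 2.60-fold lower. Another 4 genes were higher, P2rx7 by 2.68-fold, P2ry2 by 2.40-fold, Adora2a by 2.10-fold and Entpd1 by 1.93-fold. For P2rx4, P2ry1, Nt5e and Adora1 the fold changes lay between 0.862 and 1.08. In edgeR's quasi-likelihood test 4 of the 10 genes were past an adjusted p of 0.05 as higher and 2 as lower, where 16.2% and 14.8% of the 18275 genes tested were, and nothing is read from these counts because the choice of genes used the comparison. The OIR and normoxic libraries did not overlap in 5 of the 10 genes, where 16.1% of all genes tested did not, and again nothing is read from it. The median log2 fold change was 0.06 over the 10 genes and -0.01 over all genes tested. All 10 passed the filter on low counts.

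**Figure D1:**
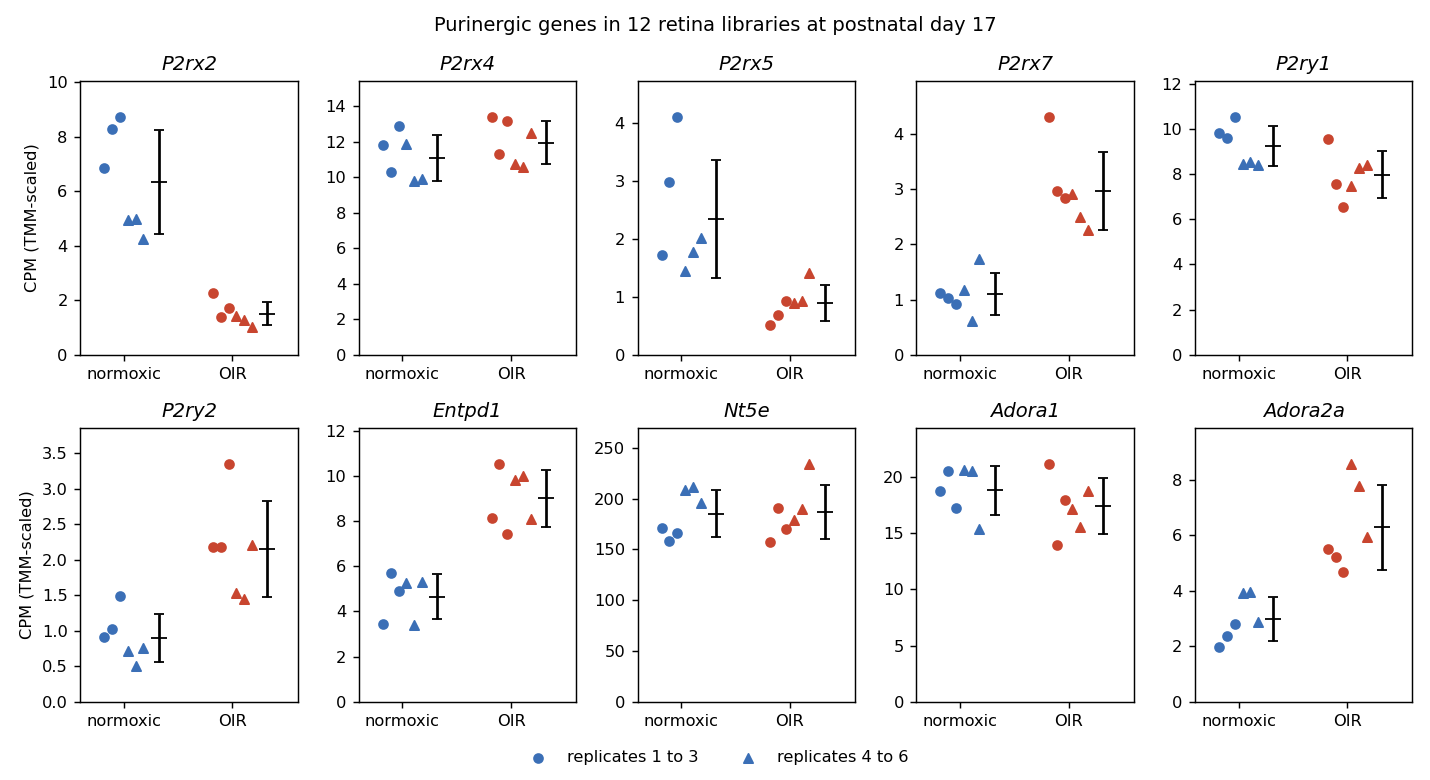
Levels of the 10 genes in CPM (TMM-scaled, linear axes from 0) in each of the 12 libraries, with circles for replicates 1 to 3, triangles for replicates 4 to 6, and the mean ± SD over 6 libraries as a bar beside the points. The OIR libraries lie below all normoxic ones for P2rx2 and P2rx5 and above them for P2rx7, Entpd1 and Adora2a.

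Promoter sequences are shown for 3 pairs of related genes in which the first was higher in OIR and the second had a fold change near 1: the neighbouring channel genes P2rx7 and P2rx4, the receptor genes P2ry2 and P2ry1, and the genes of the successive enzymes, Entpd1 and Nt5e. Each is the 250 bases before the most upstream start that RefSeq lists in build GRCm38, read 5′ to 3′ on the strand of the gene. For P2ry2 and P2ry1 the bases after this start were not found in a transcript of the gene in another annotation, GENCODE. They were found for the other genes printed and for the further P2ry2 start given below. Capitals mark ACGTG or GCGTG, the core letters of the hypoxia response element, on either strand.
P2rx7 promoter (GRCm38, chr5:122643677-122643926, plus strand): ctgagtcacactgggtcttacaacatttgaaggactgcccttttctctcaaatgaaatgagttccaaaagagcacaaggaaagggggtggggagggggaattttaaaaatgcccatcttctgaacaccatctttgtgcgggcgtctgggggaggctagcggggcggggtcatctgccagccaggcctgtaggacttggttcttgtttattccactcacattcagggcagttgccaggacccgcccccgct
P2rx4 promoter (GRCm38, chr5:122707294-122707543, plus strand): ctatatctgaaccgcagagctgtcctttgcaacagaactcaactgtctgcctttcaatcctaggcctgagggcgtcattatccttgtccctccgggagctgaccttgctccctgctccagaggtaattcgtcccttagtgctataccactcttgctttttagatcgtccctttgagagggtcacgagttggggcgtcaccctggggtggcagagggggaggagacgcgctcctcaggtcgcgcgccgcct
P2ry2 promoter (GRCm38, chr7:101012054-101012303, minus strand): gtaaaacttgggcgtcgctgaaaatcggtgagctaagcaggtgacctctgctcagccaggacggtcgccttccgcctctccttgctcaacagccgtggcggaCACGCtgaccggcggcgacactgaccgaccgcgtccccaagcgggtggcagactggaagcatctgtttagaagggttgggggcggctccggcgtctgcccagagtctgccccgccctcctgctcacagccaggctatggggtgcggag
P2ry1 promoter (GRCm38, chr3:61002535-61002784, plus strand): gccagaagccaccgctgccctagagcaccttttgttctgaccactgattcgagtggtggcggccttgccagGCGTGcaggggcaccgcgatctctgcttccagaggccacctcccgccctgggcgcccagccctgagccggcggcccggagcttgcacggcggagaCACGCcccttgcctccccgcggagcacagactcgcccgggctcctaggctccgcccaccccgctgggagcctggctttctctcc
Entpd1 promoter (GRCm38, chr19:40612116-40612365, plus strand): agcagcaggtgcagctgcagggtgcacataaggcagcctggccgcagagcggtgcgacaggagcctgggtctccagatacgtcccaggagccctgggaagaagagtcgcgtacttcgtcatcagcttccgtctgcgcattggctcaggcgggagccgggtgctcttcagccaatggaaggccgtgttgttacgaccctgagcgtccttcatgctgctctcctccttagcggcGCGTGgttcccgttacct
Nt5e promoter (GRCm38, chr9:88327359-88327608, plus strand): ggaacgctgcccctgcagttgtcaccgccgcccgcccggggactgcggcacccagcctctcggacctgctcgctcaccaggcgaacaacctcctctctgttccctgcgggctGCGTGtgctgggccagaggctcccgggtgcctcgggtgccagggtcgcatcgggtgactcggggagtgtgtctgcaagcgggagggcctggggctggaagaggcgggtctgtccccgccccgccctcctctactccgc
These cores were found in 4 of the 6 windows. P2ry2 and Entpd1 held 1 each, beginning 148 and 18 bases before the start, but so did Nt5e (138 bases), and P2ry1 held 2 (179 and 84 bases). P2rx7 and P2rx4 held none in these windows. RefSeq lists a further start for P2rx7, P2ry2 and Entpd1. The window of the further P2ry2 start (chr7:101011999-101012248) held 3 cores. Its GCGTG began 203 bases before that start and is the core already counted in the printed P2ry2 window, which overlaps this one. ACGTG was read on both strands at 17 and 18 bases, as overlapping matches. The further windows of P2rx7 and Entpd1 held none. Of all 32851 promoter windows of this length in the table, 38.6% held at least 1 such core. A match is a description of letters and not a binding site. RefSeq's table held promoters of 7 of the 10 genes. The gene among them that is not printed, Adora1, had a fold change of 0.925. Its most upstream window held 1 core and its further window 3. Of the 11 windows of these 7 genes, 7 held a core.

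P2rx2 (chromosome 5, 110487678 to 110491078 in build GRCm39) encodes a fast ATP-gated channel subunit that pairs with P2X3 in sensory neurons. Its level was 4.24 CPM in the lowest, 5.92 in the median and 8.73 in the highest normoxic library, and 1.02, 1.40 and 2.24 CPM in OIR. Every OIR library lay below every normoxic one, and the log2 fold change was -2.06 ± 0.22 (SE). The counts behind these levels were 78 to 153 per normoxic and 18 to 40 per OIR library. Within the normoxic group the libraries parted by replicate number, with 6.85 to 8.73 CPM in replicates 1 to 3 and 4.24 to 4.99 in replicates 4 to 6.

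P2rx5 (chromosome 11, 73051247 to 73063511) encodes a channel subunit with small currents of its own that also joins other subunits. It ranged from 1.44 through a median of 1.89 to 4.11 CPM in normoxic libraries and from 0.505 through 0.909 to 1.42 CPM in OIR. The highest OIR library, replicate 6, lay just under the lowest normoxic one, replicate 4 (1.44 CPM), and the groups did not overlap. The log2 fold change was -1.38 ± 0.30 (SE). It was -2.03 ± 0.38 in replicates 1 to 3 alone and -0.68 ± 0.35 in replicates 4 to 6 alone.

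P2rx7 (chromosome 5, 122781974 to 122829495) encodes the channel that opens at high ATP and drives the release of interleukin 1 from microglia and macrophages. Normoxic libraries held 0.610, 1.08 and 1.74 CPM at their lowest, median and highest, and OIR libraries 2.26, 2.88 and 4.32. All OIR libraries were above all normoxic ones, and OIR replicate 1 stood apart at the top. The log2 fold change was 1.42 ± 0.24 (SE), from 11 to 32 counts per normoxic and 40 to 77 per OIR library. P2rx4 (122845607 to 122867801), whose product sits largely in lysosomes of microglia, starts 16111 bases after the end of P2rx7 on the same strand. Its levels were 9.76, 11.1 and 12.9 CPM in normoxic and 10.6, 11.9 and 13.4 CPM in OIR libraries, which overlapped, with a log2 fold change of 0.11 ± 0.10 (SE).

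Per gene length, the make-up of the P2X family differed between the groups. The summed FPKM (the deposited values, which are fragments scaled by gene length and library size) of the 7 P2X genes was 6.53 ± 1.46 in normoxic and 4.79 ± 0.543 in OIR libraries. P2rx2 made up 37.4 ± 4.42% of this sum in normoxic libraries and 12.2 ± 2.73% in OIR. P2rx4 made up 24.9 ± 4.30% and 35.5 ± 2.31%, and P2rx7 2.97 ± 1.35% and 10.3 ± 1.96%. The FPKM ratio of P2rx2 to P2rx4 was 1.13 to 2.20 in normoxic and 0.222 to 0.457 in OIR libraries. By FPKM, P2rx2 thus exceeded P2rx4 in each normoxic library and stayed under it in each OIR library. The normoxic order rests on the lengths behind FPKM, 2574 bases for P2rx2 and 7025 for P2rx4. In CPM, which takes no account of length, normoxic libraries held at most 8.73 of P2rx2 and at least 9.76 of P2rx4.

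**Figure D2:**
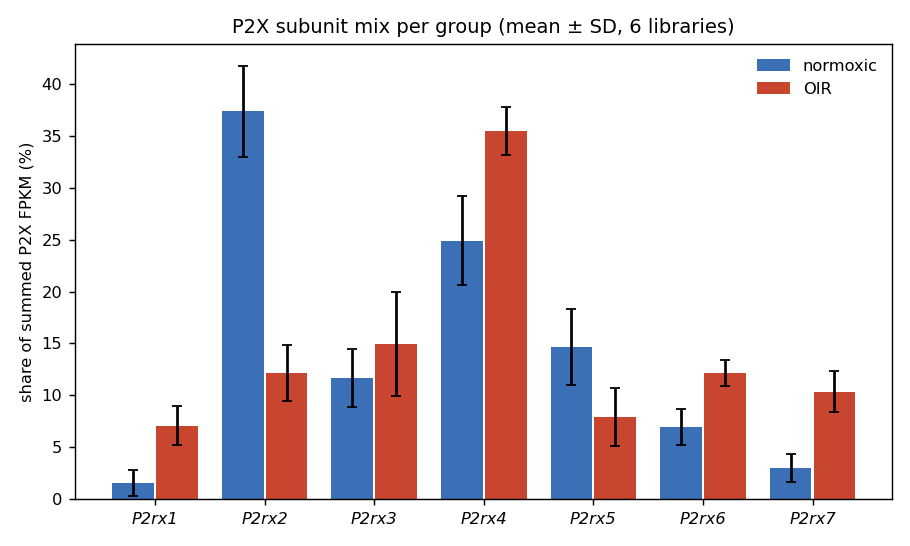
Share of each P2X subunit gene in the summed P2X FPKM (percent, bars from 0), as mean ± SD over 6 normoxic and 6 OIR libraries. P2rx2 is the largest share in normoxic libraries (37.4%) and P2rx4 in OIR libraries (35.5%). The normoxic order of these genes rests on the lengths behind FPKM and is the reverse in CPM.

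P2ry1 (chromosome 3, 60910216 to 60916403) encodes an ADP receptor of neurons, glia and platelets. Its levels were 8.43, 9.09 and 10.6 CPM (lowest, median, highest) in normoxic and 6.57, 7.92 and 9.59 CPM in OIR libraries, with 4 of 6 OIR libraries below all normoxic ones and a log2 fold change of -0.21 ± 0.11 (SE). P2ry2 (chromosome 7, 100645775 to 100662073) encodes a receptor for ATP and UTP found on endothelium, epithelia and glia. It stood at 0.499, 0.836 and 1.48 CPM in normoxic and at 1.45, 2.18 and 3.35 CPM in OIR libraries. The groups touched, since OIR replicate 5 (1.45 CPM) lay below normoxic replicate 3 (1.48), and the log2 fold change was 1.26 ± 0.27 (SE). The counts were 9 to 26 per normoxic and 25 to 73 per OIR library. The FPKM ratio of P2ry1 to P2ry2 was 6.51 to 15.7 in normoxic and 1.79 to 5.23 in OIR libraries.

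Entpd1 (chromosome 19, 40600810 to 40730046) had levels of 3.38, 5.07 and 5.68 CPM in normoxic and 7.44, 8.96 and 10.5 CPM in OIR libraries (lowest, median, highest). The OIR libraries lay above all normoxic ones, with a log2 fold change of 0.95 ± 0.15 (SE). Nt5e (chromosome 9, 88209250 to 88254145), which encodes the enzyme of the next step, was at 158, 183 and 211 CPM in normoxic and at 157, 184 and 234 CPM in OIR libraries, and its log2 fold change was 0.01 ± 0.09 (SE). The OIR range of Nt5e took in the whole normoxic range. The FPKM ratio of Nt5e to Entpd1 was 27.1 ± 8.05 in normoxic and 13.7 ± 2.73 in OIR libraries, and these ranges overlapped narrowly (18.1 to 40.4 and 11.7 to 18.8).

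Adora1 (chromosome 1, 134126961 to 134163169) had levels of 15.3, 19.7 and 20.6 CPM in normoxic and 13.96, 17.6 and 21.2 CPM in OIR libraries, with a log2 fold change of -0.11 ± 0.10 (SE). The OIR range was wider than the normoxic one on both sides. Adora2a (chromosome 10, 75152711 to 75170618) stood at 1.98, 2.84 and 3.94 CPM in normoxic and at 4.69, 5.72 and 8.57 CPM in OIR libraries. It was higher in each OIR library than in any normoxic one, with a log2 fold change of 1.07 ± 0.19 (SE). The FPKM ratio of Adora1 to Adora2a was 2.76 to 5.02 in normoxic and 1.06 to 2.04 in OIR libraries, without overlap.

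Ordered by FPKM, Nt5e led both groups at 21.6 ± 2.67 in normoxic and 21.6 ± 2.81 in OIR libraries, clear of Adora1 at 3.27 ± 0.383 and 3.00 ± 0.429. In normoxic libraries P2rx2 (2.47 ± 0.745) and P2ry1 (2.16 ± 0.211) came next and overlapped with each other, and P2rx2 overlapped with Adora1. P2rx4 (1.58 ± 0.184) lay below every P2ry1 value. P2rx5 (0.980 ± 0.431), Adora2a (0.977 ± 0.263) and Entpd1 (0.837 ± 0.182) followed, each overlapping with its neighbour. P2ry2 (0.230 ± 0.0871) and P2rx7 (0.185 ± 0.0624) closed the order, below every Entpd1 value and overlapping with each other. In OIR, the mean of Adora2a (2.04 ± 0.502) came after that of Adora1, but its range overlapped with that of P2ry1 (1.85 ± 0.230), and Adora2a was the higher of these in 2 of 6 libraries. P2rx2 (0.584 ± 0.167) stood with P2ry2 (0.547 ± 0.176) and P2rx7 (0.496 ± 0.122) below every value of Entpd1 (1.61 ± 0.230). P2rx5 was last in OIR at 0.370 ± 0.122.

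Normoxic replicates 1 to 3 and 4 to 6 are known from earlier results to part on a principal component, and the labels do not call these numbers a batch. In 5 of the 10 genes the normoxic libraries of these sets did not overlap, where this held for 38.6% of all genes tested, and in OIR this was so for Adora2a alone (1 of 10, against 19.4%). Nt5e was at 158 to 171 CPM in normoxic replicates 1 to 3 and at 196 to 211 CPM in 4 to 6. Adora2a was lower in replicates 1 to 3 than in 4 to 6 in either condition, at 1.98 to 2.80 against 2.88 to 3.94 CPM in normoxic and at 4.69 to 5.50 against 5.94 to 8.57 CPM in OIR. Its log2 fold changes within the sets were 1.10 ± 0.22 and 1.06 ± 0.20.

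The difference of the OIR effect between these sets, a contrast that did not choose the genes, was tested with edgeR's interaction term. None of the 10 genes passed an adjusted p of 0.05, where 8.21% of the genes tested did, and at an unadjusted p of 0.05 it was 1 of 10 against 23.1%. That gene was P2rx5, with a log2 difference of 1.34 ± 0.52 between replicates 4 to 6 and 1 to 3 (edgeR adjusted p = 0.12), and its adjusted p stayed above 0.05 without any single library. For P2rx2 the difference was 0.24 ± 0.33 (adjusted p = 0.72), for P2rx7 -0.60 ± 0.47 (adjusted p = 0.485) and for Entpd1 0.11 ± 0.28 (adjusted p = 0.866). The sets were defined with these libraries in view, so the test does not stand apart from them.

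**Figure D3:**
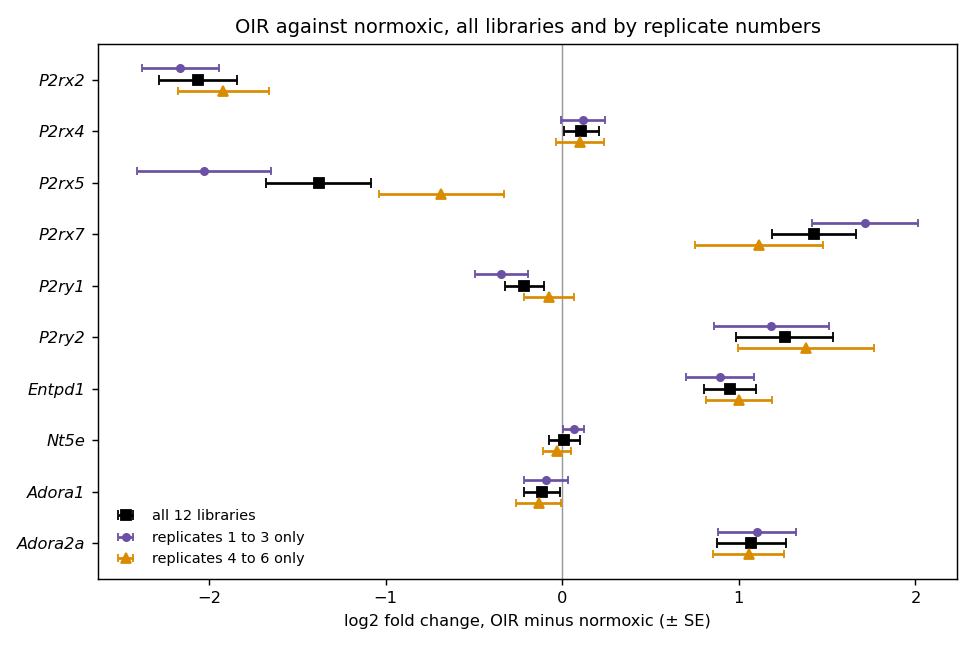
Log2 fold changes (OIR minus normoxic, ± SE) of the 10 genes from all 12 libraries (squares), from replicates 1 to 3 alone (circles) and from replicates 4 to 6 alone (triangles). P2rx5 shows the widest gap between the sets, -2.03 against -0.68.

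The remaining P2X, P2Y and adenosine receptor genes were taken by family and not for their values, and the test is given for them. Earlier results of these data were known when they were listed. P2rx1, the channel of platelets and smooth muscle, rose 3.27-fold from a low level, 0.263 ± 0.196 to 0.878 ± 0.215 CPM (log2 1.71 ± 0.44 SE, edgeR adjusted p = 0.00626), and its groups did not overlap. Its counts were 0 to 9 per normoxic and 12 to 20 per OIR library. The filter on low counts thus admitted P2rx1 through its OIR libraries alone, and its p-value does not stand apart from that. P2ry6, a UDP receptor that triggers phagocytosis by microglia, rose 4.09-fold (edgeR adjusted p = 1.9e-05), its mean going from 0.695 ± 0.341 CPM to 2.85 ± 0.599 CPM with every OIR library above the normoxic ones. P2ry13, an ADP receptor of microglia, rose 1.59-fold with 5 of 6 OIR libraries above all normoxic ones (edgeR adjusted p = 0.00944).

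P2ry12, the ADP receptor that directs microglial processes, stood at 5.05 ± 1.39 CPM in normoxic and 6.60 ± 1.07 in OIR libraries (log2 0.38 ± 0.17 SE, edgeR adjusted p = 0.0999), and its call depended on the fit, with an adjusted p of 0.0301 without normoxic replicate 5 and 0.0302 with a replicate block. P2ry14, a receptor for UDP sugars, had a log2 fold change of -0.03 ± 0.14 (adjusted p = 0.893). The sensory channel gene P2rx3 had one of -0.09 ± 0.30 (adjusted p = 0.858) and P2rx6, which encodes a subunit that works mainly within mixed channels, one of 0.42 ± 0.20 (adjusted p = 0.131).

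Adora2b, the low-affinity adenosine receptor gene, was at 2.15 ± 0.451 CPM in normoxic and 1.87 ± 0.509 in OIR libraries (log2 -0.20 ± 0.22 SE, edgeR adjusted p = 0.526). Adora3 was under the filter on low counts, with 15 counts summed over normoxic and 55 over OIR libraries, a ratio of 3.63 (95% counting interval 2.02 to 6.93). In a fit without the filter its edgeR adjusted p was 0.022, and its OIR libraries (5 to 12 counts) did not overlap in CPM with the normoxic ones (0 to 5). P2ry4 had 22 and 8 counts and P2ry10 2 and 6, both too few for a comparison.

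Receptor genes of the pathway lie in clusters on the GRCm39 chromosomes, and neighbours did not always share a direction. P2ry6 and P2ry2 lie 21918 bases apart on chromosome 7 with no gene model of the table between them, and both had higher levels in OIR. P2rx7 and P2rx4 on chromosome 5, with 1 gene model in the gap, had log2 fold changes of 1.42 and 0.11. P2rx1 and P2rx5 on chromosome 11, 145220 bases apart with 5 gene models in the gap, had log2 fold changes of 1.71 and -1.38. P2ry14, P2ry13 and P2ry12 lie in this order on chromosome 3, with 2 gene models in the first gap and 1 in the next. Of these, P2ry13 alone passed the test, and the differences among the 3 genes were not tested.

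Of 8 other ectoenzyme genes, 6 were tested, 1 rose, 1 fell and 4 did not pass. Cd38, which encodes the enzyme that cuts NAD outside the cell and is found on leukocytes and glia, rose 3.79-fold (edgeR adjusted p = 3.7e-07). It stood at 1.98 ± 0.647 CPM in normoxic and 7.52 ± 1.01 CPM in OIR libraries, with no overlap between groups. Entpd3, an ATP-cutting relative of Entpd1 found in neurons, fell by 0.74 ± 0.17 on the log2 scale (edgeR adjusted p = 0.0026). It stood at 8.51 ± 1.74 CPM in normoxic and 5.09 ± 1.24 CPM in OIR libraries, with 4 of 6 OIR libraries below all normoxic ones. Its OIR replicates 4 to 6 against the normoxic ones of those numbers gave an adjusted p of 0.0869.

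Among 5 genes of nucleotide release, 1 rose, 1 fell and 3 did not pass. Gja1, which encodes the hemichannel protein connexin 43 and is also a marker of astrocytes, rose 4.24-fold (edgeR adjusted p = 6.1e-07), with normoxic libraries at 5.83 ± 2.65 CPM and OIR libraries at 24.8 ± 3.19 CPM. The rise was 7.42-fold in replicates 1 to 3 and 2.88-fold in replicates 4 to 6, and this difference passed the interaction test (edgeR adjusted p = 2.0e-04). It lay mainly in the normoxic level, with means of 3.52 CPM in replicates 1 to 3 and 8.15 CPM in 4 to 6. The OIR means were 26.2 and 23.4 CPM. The sets were defined with the normoxic libraries in view, so this p-value does not stand apart from them. The pannexin gene Panx2 fell by 0.29 ± 0.05 on the log2 scale (edgeR adjusted p = 4.3e-04), with all OIR libraries (43.0 to 52.3 CPM) below the normoxic ones (54.5 to 59.4). Panx1, the ATP-releasing pannexin, had a log2 fold change of -0.22 ± 0.12 (adjusted p = 0.165), and the vesicular nucleotide transporter gene Slc17a9 one of -0.19 ± 0.22 (adjusted p = 0.572).

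Of 7 tested genes of adenosine uptake and breakdown 6 did not pass and 1 fell, namely Slc29a4, a transporter of monoamines and adenosine, by 0.41 ± 0.07 on the log2 scale (edgeR adjusted p = 3.2e-04, 40.4 ± 3.82 to 30.4 ± 2.85 CPM). The adenosine kinase gene Adk had a log2 fold change of -0.17 ± 0.08 (adjusted p = 0.127). Of 3 tested inflammasome genes downstream of P2X7, Gsdmd, the gene of the pore protein gasdermin D, rose 1.75-fold (log2 0.81 ± 0.20 SE, edgeR adjusted p = 0.00396). In replicates 4 to 6 alone its log2 fold change was 0.85, with an adjusted p of 0.0661. The other two, Il18 and Pycard, had log2 fold changes of -0.26 ± 0.12 and -0.14 ± 0.38 (adjusted p = 0.0955 and 0.819).

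Over all 7 lists of other pathway genes, 29 of 39 were tested, 6 rose, 3 fell and 20 did not pass. The 9 called genes are 31.0% of those tested, the same share as the 31.0% of all genes. Over the 29 tested genes the median log2 fold change was 0.08, against -0.01 over all genes. In replicates 1 to 3 alone 14 of 30 tested pathway genes were called, where 39.0% of all genes were, and in replicates 4 to 6 alone 7 of 29, where 19.98% of all genes were (3671 of 18377). The lists were picked by role and not by how their genes moved, though with earlier results of these data known.

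**Figure D4:**
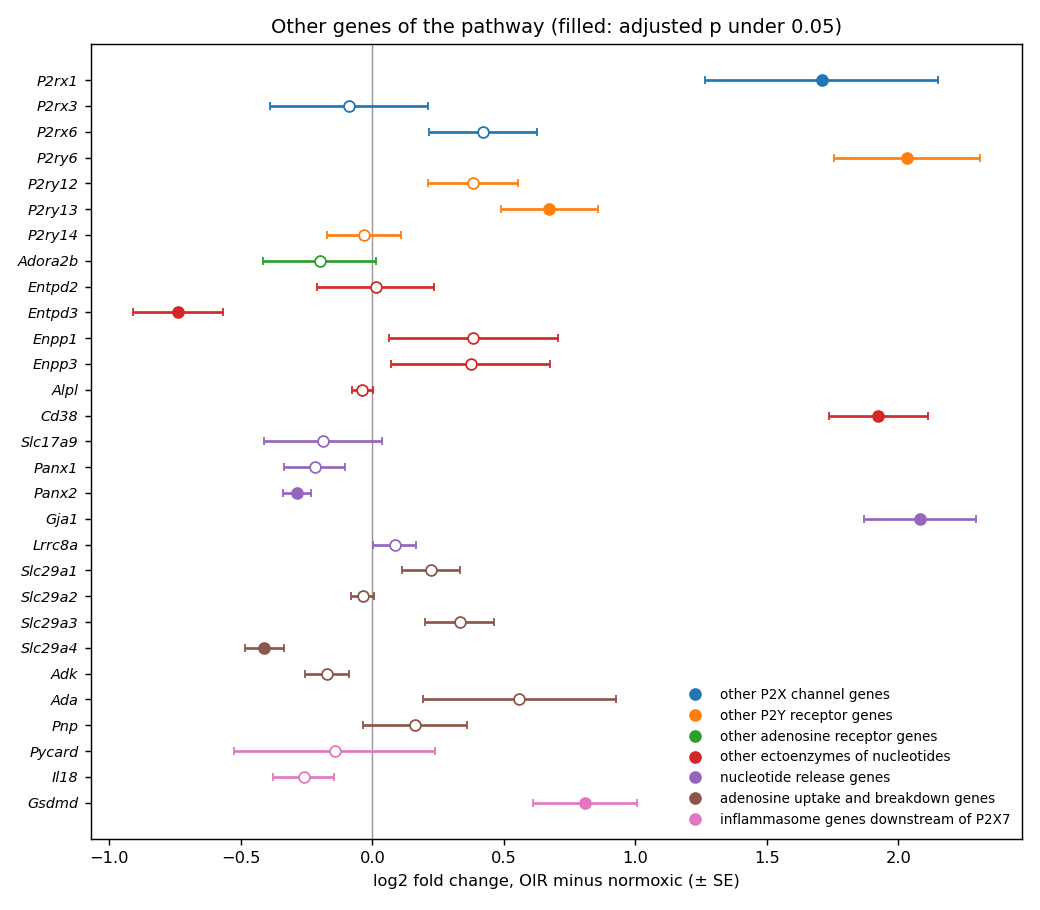
Log2 fold changes (OIR minus normoxic, ± SE) of the 29 tested genes of the other pathway lists, coloured by list, with filled points for an edgeR adjusted p under 0.05. P2ry6, Gja1, Cd38 and P2rx1 lie above 1.5 and Entpd3 is lowest at -0.74.

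Cell type markers were tested in the same contrast, in which 16.2% of all genes tested rose and 14.8% fell. Of 12 markers of microglia and macrophages 11 rose, with Aif1 and Csf1r at 3.24-fold and 1.95-fold, a list median of 1.52 on the log2 scale and a summed level of 72.9 to 84.6 CPM in normoxic and 170 to 231 CPM in OIR libraries. This stands beside the log2 fold changes of P2rx7 (1.42), Entpd1 (0.95), P2ry6 (2.03) and P2ry13 (0.67), genes that microglia express, and also beside P2ry12 (0.38, not past the test) and P2rx4 (0.11). The marker that did not pass was Tmem119, with a log2 fold change of 0.17. Of 9 endothelium markers 8 rose (Pecam1 2.44-fold, Cdh5 3.40-fold, median 1.54, summed level 233 to 301 and 405 to 562 CPM), and all 7 pericyte and smooth muscle markers rose (median 1.43, summed level 170 to 225 and 453 to 676 CPM). These vessel lists stand beside Entpd1, P2ry2, Adora2a and P2rx1, all of them higher in OIR. P2rx4 (0.11), P2ry1 (-0.21) and Adora2b (-0.20) had no such rise. The part of microglia or vessel cells in the levels of any of these genes was not tested.

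Markers of inner neurons were lower. All 9 amacrine markers fell (median -0.45, from -1.16 to -0.17, summed level 1102 to 1203 CPM in normoxic and 663 to 915 CPM in OIR), as did all 7 bipolar markers (median -0.37) and 4 of 8 ganglion cell markers (median -0.50, from -0.72 to -0.01). The log2 fold change of P2rx2, -2.06, lay below that of every amacrine, bipolar and ganglion cell marker in these lists, and a test of that difference was not made. Of 9 rod markers 2 rose and 1 fell (median 0.14, from -0.13 to 0.17), beside the 0.01 of Nt5e. With 16.2% of all genes tested higher and 14.8% lower, nothing is read from the counts of rod, cone and horizontal cell markers. Astrocyte markers rose in 5 of 5 (median 1.16), and Muller glia markers went both ways, with 2 higher and 4 lower of 7. Lens markers fell in 4 of 7 tested (median -1.80, 1 further gene listed at 0 throughout), red blood cell markers rose in 4 of 4 (median 0.91), horizontal cell markers fell in 1 of 3, cone markers in 1 of 7, and 6 pigment epithelium markers had log2 fold changes from -0.43 to 0.25.

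**Figure D5:**
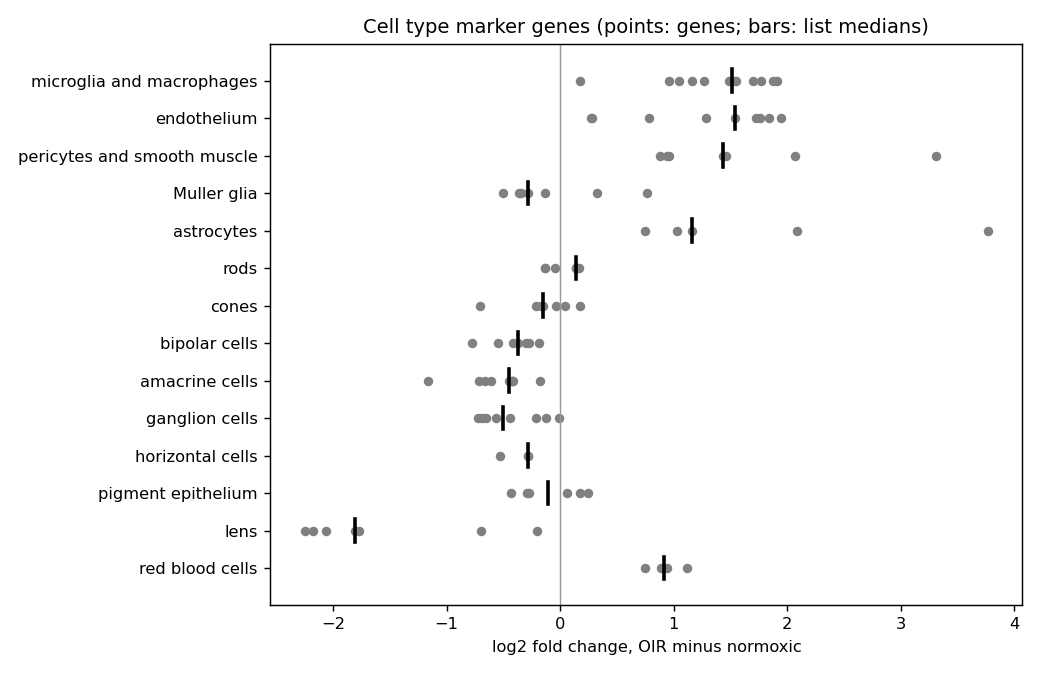
Log2 fold changes (OIR minus normoxic) of the tested marker genes of 14 cell type lists, a grey point for each gene and a black bar for the list median. Microglia, endothelium and pericyte lists have medians of 1.52, 1.54 and 1.43, and the amacrine list has one of -0.45.

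Genes with the most similar profile were sought for the lowest and the highest of the 10 fold changes. Likeness was the root mean square difference over 12 libraries between log2 CPM values centred on the normoxic mean, among 13765 named genes with a mean of at least 1 CPM. With this centring, likeness largely matches the OIR fold change by construction. The 3 genes given for P2rx2 had log2 fold changes of -1.91, -2.27 and -1.95, and those for P2rx7 had 1.46, 1.48 and 1.42. A shared cell of origin was not tested. Nearest to P2rx2 were Cck (0.382 log2 units), a neuropeptide gene of amacrine cells, Atp13a5 (0.513), which encodes a transport ATPase, and Il20ra (0.577), which encodes an interleukin receptor chain. Cck stood at 15.1 ± 4.75 CPM in normoxic and 4.01 ± 0.600 in OIR libraries. Nearest to P2rx7 were Bin2 (0.241), a membrane-bending protein gene of leukocytes, Cyth4 (0.257), an exchange factor gene of leukocytes, and Vim (0.325), the intermediate filament gene. Bin2 stood at 1.46 ± 0.525 and 4.05 ± 1.13 CPM.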

How the data were processed

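Retina RNA of 12 libraries was analysed, 6 normoxic and 6 OIR, with groups and replicate numbers from the sample titles. The deposited values are unnormalized gene counts and, beside them, FPKM, per the file headers. Trimmomatic, HISAT2 version 2.0.5, HTSeq and build GRCm39 are named without roles, per the submitters' processing notes. The sources used here give neither annotation nor strand setting, so reads of a gene and an antisense neighbour cannot be told apart. Each model overlapping 1 of the 10 genes held at most 53 counts over all libraries.

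The counts went into edgeR (version 4.0.16, in R version 4.3.3) with filterByExpr (minimum count 10, total 15), TMM scaling and the quasi-likelihood test, adjusted by Benjamini-Hochberg over 18275 genes, with 0.05 as threshold. Every adjusted p comes from this test unless said otherwise. The genes, the lists and the tests were chosen with earlier results of these data known. The genes named were the 10, every other P2X, P2Y and adenosine receptor gene, the called genes of the other pathway lists (at most 5 each), the 3 nearest profiles of the lowest and of the highest fold change, and the first 2 genes of marker lists. Panx1, Slc17a9, Adk, Il18 and Pycard were added after their values were seen. FPKM used a length below the length column for the 10 genes. The choice of that length was not stated by a label or header, and orders of genes by FPKM depend on it. Acp3 was matched through an older symbol. DESeq2 version 1.42.0 and limma version 3.58.1 served as alternatives, and the procedure was tested on simulated data. No pair of libraries in a group agreed within sampling noise (chi-square over its degrees of freedom was 3.05 to 15.4). Counting intervals cover counting error only.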

Additional observations from a re-analysis of the deposited data

Results flagged for a closer look

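In OIR replicate 1 the level of P2rx7 was 4.32 CPM, far from the other OIR libraries at 2.26 to 2.97 CPM. Without this library the log2 fold change of P2rx7 was 1.29. Of 48 sets of 6 libraries checked in this way (24 genes in each of the groups) this was the only sample that stood apart. Chance gives about 1 set in 20, so 1 of 48 is no more than chance gives. The rise of Gja1 differed between the replicate numbers, with a log2 difference of -1.37 between 4 to 6 and 1 to 3 (edgeR interaction term, adjusted p = 2.0e-04). The log2 fold change was 2.89 in replicates 1 to 3 and 1.52 in replicates 4 to 6, with the OIR level above the normoxic one in every library. The normoxic means of these sets were 3.52 and 8.15 CPM and the OIR means 26.2 and 23.4 CPM, so the difference lay mainly in the normoxic level. The sets were defined with these libraries in view, and the test does not stand apart from them.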

How the results depend on the processing

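The 10 genes were followed through 24 alternatives, and of 240 values 239 kept their side of the threshold. The alternatives refit these libraries or parts of them on the comparison known when the genes were chosen, so nothing is read from this count. Nt5e, not past the threshold in any alternative, had the other sign in 5 alternatives (range -0.06 to 0.07), and the other 9 genes kept their sign. The value that changed side was P2rx5, whose log2 fold change was -0.68 and no longer past the threshold in replicates 4 to 6 alone, which left 1 gene called lower. In that subset 3671 genes (19.98%) and 7 other pathway genes were called, and in replicates 1 to 3 alone 7226 genes (39.0%) and 14 other pathway genes. Leaving out each library gave 5073 to 5870 called genes, 4 to 4 of the 10 called higher, 2 to 2 called lower and 9 to 12 other pathway genes. For the difference between the replicate sets it gave 901 to 1565 genes, with 901 without normoxic replicate 5, against 1501. P2rx1 was not past the threshold in replicates 1 to 3 (adjusted p = 0.0525), nor P2ry13 in replicates 4 to 6 (0.244). P2ry12 passed it with a replicate block (0.0302), with a block for the sets (0.0228), in replicates 1 to 3 (0.0331) and without normoxic replicate 5 (0.0301). The cause was not tested. With limma on log2(FPKM + 1) fold changes of low genes shrink by construction, as for P2ry2 (0.33 in place of 1.26).

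The replicate block gave 5675 called genes against 5673. Same-numbered libraries deviated together with correlations of -0.0111 to 0.115, 1 of 6 above 0.1, and 2 of 6 normoxic libraries correlated best with their own number. Normoxic replicates 1 to 3 each correlated best with OIR replicate 3, and normoxic replicates 4 to 6 each with OIR replicate 5. These values show no pairing of single libraries, but every best match lay in the same set of numbers. Depth limits P2ry2, P2rx7 and P2rx5 most, which had 9 to 77 counts per library.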

Other observations

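The genes here were looked up for their role downstream of the receptors or in adenosine supply, and were singled out after their values were seen. Casp1, the gene of the caspase that matures interleukin 1, was under the filter on low counts, with 16 counts summed over normoxic and 86 over OIR libraries, a ratio of 5.33 (95% counting interval 3.10 to 9.74). Its OIR libraries (7 to 21 counts) lay above the normoxic ones (0 to 6), and a fit without the filter gave an edgeR adjusted p of 8.8e-04. Il1b, the interleukin gene itself, had 9 and 25 counts (ratio 2.75, interval 1.24 to 6.70, unfiltered adjusted p = 0.315) and overlapped between groups. Nlrp3, the sensor gene, had 25 and 35 counts (ratio 1.39, interval 0.807 to 2.42, unfiltered adjusted p = 0.683). The acid phosphatase gene Acp3, which also makes adenosine from AMP, had 38 and 27 counts and Entpd8 13 and 7. The concentrative nucleoside transporter genes Slc28a2 and Slc28a3 had 6 and 14, and 4 and 2 counts.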
